A study of Mus musculus with 22 samples.

Results

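A set of 10 genes of the red cell lineage were followed through the mouse stem and progenitor hierarchy: the transcription factor gene Klf1, the alpha globin gene Hba-a1, the carbonic anhydrase genes Car1 and Car2, the membrane genes Aqp1, Icam4, Sptb and Ank1, and the signalling genes Samd14 and Sphk1. The members were taken by symbol, and every probe of the array that names one of them was read. All 10 genes were on the array, with 21 of its 45281 probes, and each had at least 1 probe that passed the detection filter (detection p under 0.05 on at least 4 arrays), 15 probes in all. They are 10 of the 19057 genes named on the array, of which 11118 could be tested. The levels below are log2 normalised signals, in which a difference of 1 is a doubling, and the brightest passing probe stands for each gene. A probe with a detection p of 0.05 or more on an array is called undetected there.

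Red cells arise from multipotent progenitors through cells that switch on GATA1 and then Klf1. Klf1, also called EKLF, binds CACC-type sequences and activates globin, membrane and cell cycle genes of erythroid cells. The mature red cell carries haemoglobin, moves carbon dioxide with carbonic anhydrases, passes water through the channel Aqp1, and keeps its shape with a spectrin skeleton that Ank1 ties to the membrane. In stem and early progenitor cells several of these genes are known from other tissues and functions as well.

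The cells were sorted from the bone marrow of C57BL/6 mice, 8 weeks old, all of which carried a GATA1-GFP transgene, so that no population came from mice without the reporter. GATA1+LSK (4 arrays) are the LSK cells, the compartment that holds stem cells and early progenitors, in which the reporter was on. CMP (4 arrays) are common myeloid progenitors, LT-HSC (6 arrays) long-term haematopoietic stem cells, GATA1-LSK (4 arrays) the LSK cells without the reporter, and LMPP (4 arrays) lymphoid-primed multipotent progenitors. The title of the series asks what accompanies the rise of GATA1, so GATA1+LSK was set against every other population, and the others against each other. The labels give neither the promoter fragment of the transgene nor the mice behind each array. The p-values therefore cover the array to array spread alone, and this may be technical.

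Arrays were spread over 4 slides, with 12264 to 19015 probes detected per array and mean signals between 311 and 462 on slide 2 and between 123 and 209 on slide 3. Slide 1 held 3 GATA1-LSK and 3 LMPP arrays, slide 2 held 2 GATA1+LSK, 2 CMP and 2 LT-HSC arrays, slide 3 held 1 GATA1+LSK, 4 LT-HSC and 1 GATA1-LSK array, and slide 4 held 1 GATA1+LSK, 2 CMP and 1 LMPP array. The Gata1 transcript averaged 7.19 in GATA1+LSK, 6.62 in CMP, 5.02 in LT-HSC, 5.72 in GATA1-LSK and 4.77 in LMPP. Kit, a defining marker of these sorts, was detected on all 22 arrays. Of the other sort markers, Slamf1 was undetected on every CMP and LMPP array. It was highest in GATA1+LSK (5.98, detected on 4 of 4 arrays), with 5.54 in LT-HSC (3 of 6) and 4.58 in GATA1-LSK (1 of 4). Fcgr3 averaged 6.04 in CMP and at most 5.28 in the other populations. Flt3, known from LMPP, stood near background in LMPP too (5.03, detected on 3 of 4 arrays).

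The promoter sequences of 4 members are shown because they cover the regulator, the globin and 2 membrane proteins, all 4 of which were higher in GATA1+LSK than in LMPP. They are RefSeq windows on GRCm38.p6, from 250 bases before to 50 after the annotated start, read on the plus strand, on which all 4 genes lie. Capitals mark GATAA or its reverse complement TTATC, the core bound by GATA factors, and CCNCNCCC or GGGNGNGG, a CACC-type motif as bound by Klf1. Windows of Klf1 (chr8:84901732-84902031), Hba-a1 (chr11:32283422-32283721), Aqp1 (chr6:55336049-55336348) and Icam4 (chr9:21029182-21029481) read as follows.
Klf1: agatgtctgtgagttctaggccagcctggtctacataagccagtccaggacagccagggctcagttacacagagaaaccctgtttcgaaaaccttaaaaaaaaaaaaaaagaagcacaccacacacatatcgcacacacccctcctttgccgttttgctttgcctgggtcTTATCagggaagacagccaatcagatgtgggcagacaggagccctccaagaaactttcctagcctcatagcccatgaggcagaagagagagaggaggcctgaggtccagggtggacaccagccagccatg
Hba-a1: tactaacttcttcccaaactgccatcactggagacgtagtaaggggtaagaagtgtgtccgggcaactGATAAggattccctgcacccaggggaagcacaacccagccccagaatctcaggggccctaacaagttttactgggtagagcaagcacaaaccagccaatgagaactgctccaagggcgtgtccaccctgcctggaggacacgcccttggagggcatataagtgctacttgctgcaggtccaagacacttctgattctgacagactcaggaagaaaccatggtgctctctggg
Aqp1: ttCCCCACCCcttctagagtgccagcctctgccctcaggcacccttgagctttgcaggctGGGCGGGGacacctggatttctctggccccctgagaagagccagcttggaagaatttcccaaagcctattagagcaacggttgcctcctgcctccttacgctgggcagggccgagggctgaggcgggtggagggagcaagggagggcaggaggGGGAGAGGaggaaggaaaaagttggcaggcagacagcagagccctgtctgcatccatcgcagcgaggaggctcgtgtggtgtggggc
Icam4: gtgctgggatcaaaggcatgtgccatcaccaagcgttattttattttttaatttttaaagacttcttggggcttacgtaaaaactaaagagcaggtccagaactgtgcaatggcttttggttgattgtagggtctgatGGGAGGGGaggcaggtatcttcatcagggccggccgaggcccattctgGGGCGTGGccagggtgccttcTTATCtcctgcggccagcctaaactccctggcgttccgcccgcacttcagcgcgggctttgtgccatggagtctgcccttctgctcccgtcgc

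The Klf1 and Hba-a1 windows each held 1 GATAA match and no CCNCNCCC match. Both hold the shorter letters CACCC, which CCNCNCCC does not cover and which were not searched for. The Aqp1 window held 3 CCNCNCCC matches and no GATAA, and the Icam4 window held 1 GATAA and 2 CCNCNCCC matches. Both strands were searched, and the motifs share no bases in these windows. Of all 32851 promoter windows, 25.4% hold GATAA and 49.5% hold CCNCNCCC, so a match is a description of these letters and not a binding site. Windows were found for 6 of the 10 members. The Hba-a1 window shares a run of 297 of its 300 bases with that of Hba-a2, its near-identical neighbour copy, and the signal of the Hba-a1 probe may hold transcripts of both.

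At least 5 of the 10 genes stood higher in GATA1+LSK than in each other population. In limma's moderated F test over the 5 populations, with the Benjamini-Hochberg adjustment made across every tested gene, 9 of the 10 varied, all except Ank1, against 22.9% of all genes. Against GATA1-LSK, 7 were higher and none lower (Klf1, Hba-a1, Car1, Aqp1, Sptb, Samd14 and Sphk1), while 1.08% of all genes were called higher there. Against LMPP, 9 were higher, all except Ank1, against 3.71% of all genes. Against CMP, 5 were higher (Hba-a1, Car2, Aqp1, Sptb and Samd14), against 3.49%. Against LT-HSC, 5 were higher (Klf1, Aqp1, Icam4, Sptb and Samd14), against 4.16%, and Sphk1 was lower, against 6.34%. The median difference of the 10 genes was 1.76 against GATA1-LSK, 2.94 against LMPP, 0.96 against CMP and 1.41 against LT-HSC, where the medians of all genes were -0.05, -0.04, -0.02 and 0.01. The 4 comparisons share the GATA1+LSK arrays. The members were chosen with earlier results of these data known, so these counts and medians are descriptions and no test of the set.

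**Figure D1:**
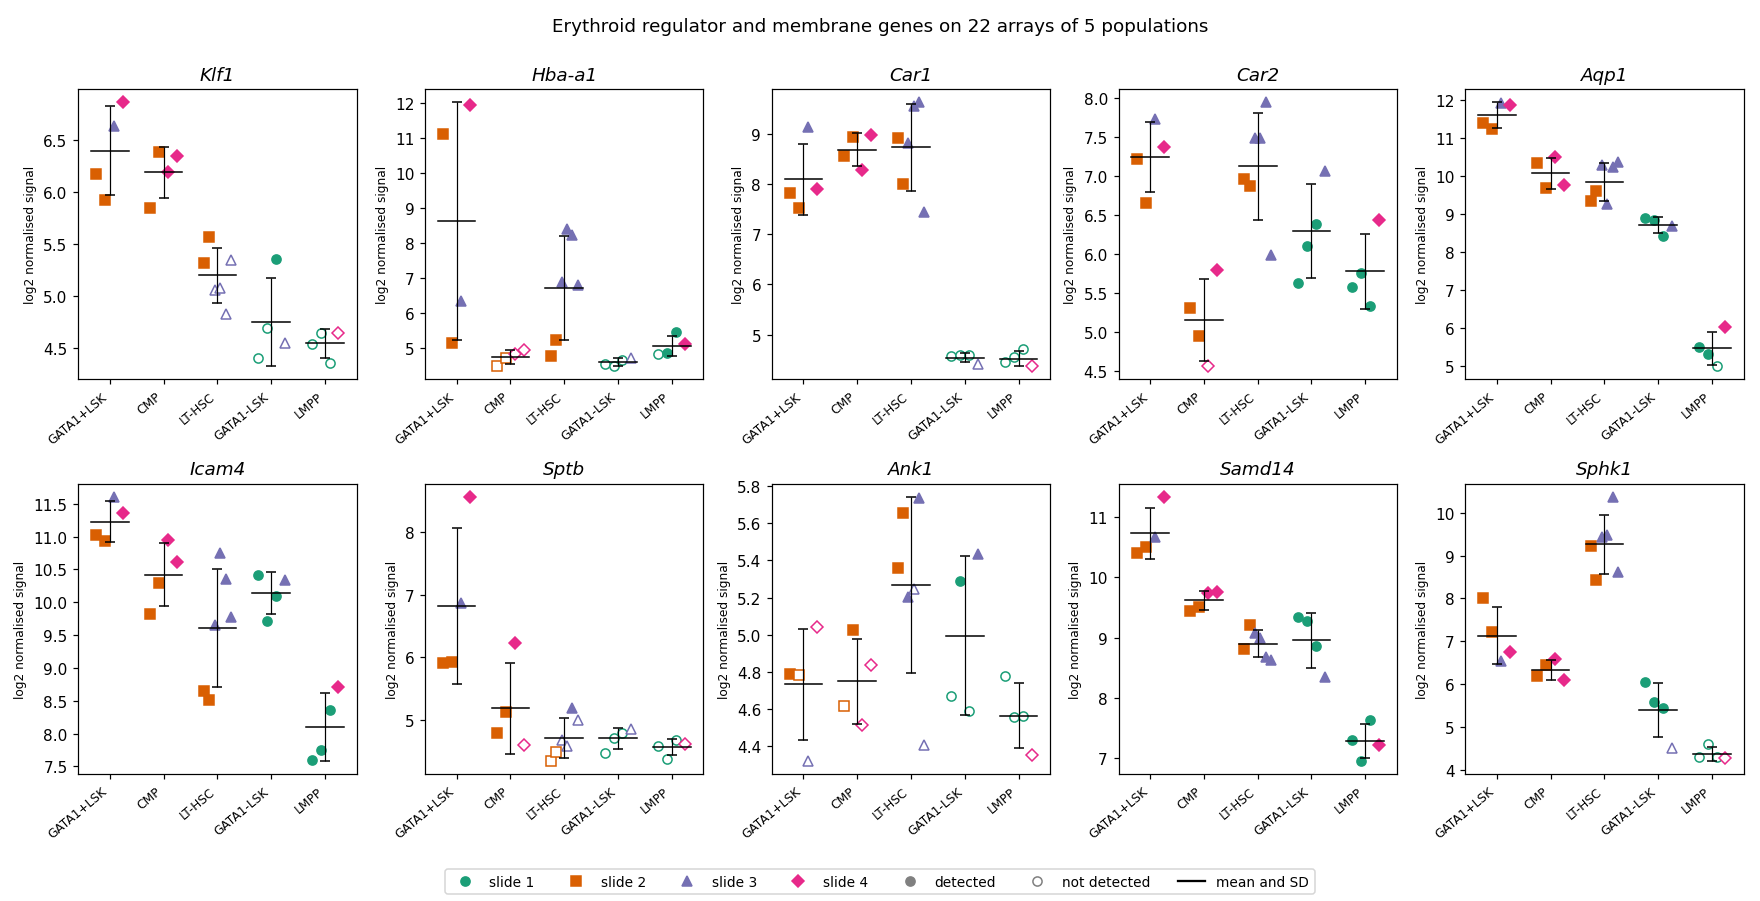
Log2 normalised signal of each of the 10 genes (y axis, a scale of its own in each panel) on every array, by population (x axis); symbols and colours give the slide, filled symbols detected and open symbols undetected arrays, bars the mean and SD. Aqp1 and Samd14 are highest on the 4 GATA1+LSK arrays and lowest on the LMPP arrays, while Sphk1 is highest on the LT-HSC arrays and Car1 is undetected in GATA1-LSK and LMPP.

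**Figure D2:**
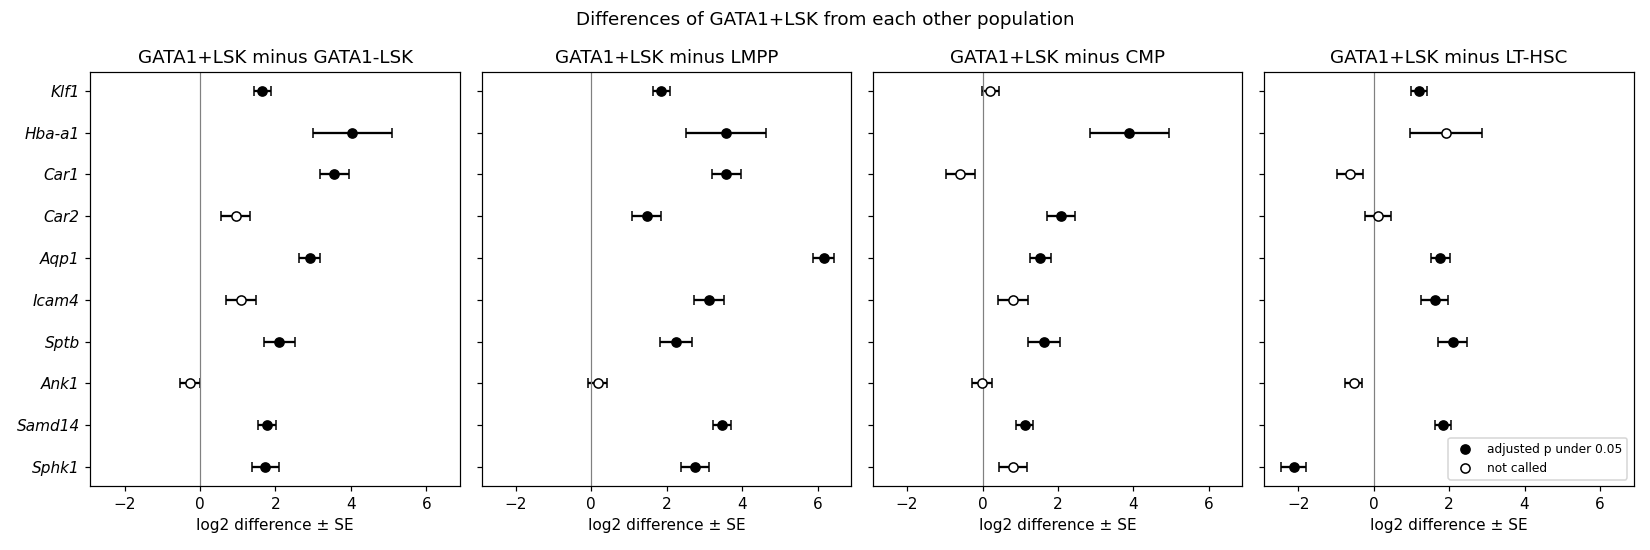
Difference of GATA1+LSK from each other population (x axis, log2, mean ± SE of the fit) for each gene (y axis); filled points passed an adjusted p of 0.05. All filled points lie right of 0 except Sphk1 against LT-HSC.

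Klf1 was detected on every GATA1+LSK and CMP array and stood lower, mostly under detection, in the other populations. Its signal was 6.17, 5.92, 6.64 and 6.87 on the GATA1+LSK arrays, against 5.85, 6.38, 6.19 and 6.34 in CMP, a lowest of 4.82, a median of 5.19 and a highest of 5.57 in LT-HSC, 4.40, 4.69, 5.36 and 4.55 in GATA1-LSK, and 4.54, 4.64, 4.35 and 4.65 in LMPP. It was detected on all 4 GATA1+LSK and all 4 CMP arrays, on 2 of 6 LT-HSC arrays, both on slide 2, on 1 of 4 GATA1-LSK arrays and on no LMPP array. The GATA1+LSK arrays overlapped only those of CMP. Klf1 was higher in GATA1+LSK than in GATA1-LSK by 1.65 ± 0.23 (SE, adjusted p = 0.000205) and than in LT-HSC by 1.20 ± 0.21 (adjusted p = 0.000455). The first call was lost with median scaling (1.35, adjusted p = 0.0732) and without slide 1 (1.85, adjusted p = 0.137), and the second with median scaling (0.93, adjusted p = 0.110) and without slide 3 (0.88, adjusted p = 0.0837). Within slide 2, where both were detected, GATA1+LSK exceeded LT-HSC by 0.60. On slides 3 and 4 Klf1 was detected in GATA1+LSK (6.64 and 6.87) and undetected on the LT-HSC, GATA1-LSK and LMPP arrays beside it. Against LMPP it was at least 2.80-fold higher (means 6.40 and 4.54, adjusted p = 7.03e-06). Where a gene was undetected on every array of the dimmer population, the fold is given in this way as a lower bound. It is taken against the mean, over those arrays, of the lowest signal called detected on each array, or of the probe's own signal where that was higher.

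The difference from CMP was 0.21 ± 0.23 (95% interval -0.28 to 0.69, adjusted p = 0.748), with -0.07 within slide 2 and 0.60 within slide 4. With median scaling it was -0.13, and with array weights -0.25. CMP in turn exceeded GATA1-LSK by 1.44 ± 0.23 (adjusted p = 0.000238) and LT-HSC by 0.99 ± 0.21 (adjusted p = 0.00152), and was at least 2.42-fold above LMPP (means 6.19 and 4.54, adjusted p = 5.97e-05). No slide held both CMP and GATA1-LSK, and with slide as a fixed block this call was kept. GATA1+LSK and CMP, which did not differ beyond their spread, thus stood above the other 3 populations. LT-HSC stood above LMPP by a bound of at least 1.22-fold (means 5.20 and 4.54, adjusted p = 0.0393), a call lost when any of the 4 LMPP arrays or LT-HSC replicates 1, 2 or 6 was left out (adjusted p from 0.0586 to 0.120). The neighbours LT-HSC with GATA1-LSK and GATA1-LSK with LMPP did not pass (adjusted p = 0.249 and 0.9999).

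Hba-a1, which encodes the alpha chain of adult haemoglobin, was very high on some GATA1+LSK arrays and near background in CMP and GATA1-LSK. On the GATA1+LSK arrays it read 11.13, 5.14, 6.33 and 11.94, against 4.49, 4.72, 4.81 and 4.95 in CMP, a lowest of 4.75, a median of 6.84 and a highest of 8.39 in LT-HSC, 4.53, 4.48, 4.66 and 4.71 in GATA1-LSK, and 4.82, 4.86, 5.45 and 5.10 in LMPP. GATA1+LSK replicates 1 and 4, on slides 2 and 4, were thus far above replicates 2 and 3, and the population's SD was 3.40. It was detected on every GATA1+LSK and LT-HSC array and on no CMP or GATA1-LSK array. In GATA1+LSK Hba-a1 was at least 13.1-fold higher than in CMP (means 8.63 and 4.74, adjusted p = 0.0257), at least 12.6-fold higher than in GATA1-LSK (means 8.63 and 4.60, adjusted p = 0.0383), and higher than in LMPP by 3.57 ± 1.05 (adjusted p = 0.0343), with overlapping arrays.

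Each of these 3 calls was lost when any array of either population was left out, except GATA1+LSK replicates 2 and 3. As Hba-a1 was undetected on every CMP and GATA1-LSK array, the log2 differences from these populations that follow are against background signal and are no measure of a fold. Without GATA1+LSK replicate 1 the differences were 3.06 from CMP, 3.21 from GATA1-LSK and 2.74 from LMPP (adjusted p = 0.0935, 0.103 and 0.120), and without replicate 4 they were 2.79, 2.94 and 2.47 (adjusted p = 0.108, 0.164 and 0.160). Leaving out CMP arrays gave an adjusted p of 0.0520 to 0.0649, GATA1-LSK arrays 0.0681 to 0.101, and LMPP arrays 0.0628 to 0.0823. Without both replicates 1 and 4, which was tried after seeing the data, the differences were 0.99, 1.14 and 0.68 (adjusted p = 0.620, 0.617 and 0.734). Against LT-HSC the difference was 1.92 ± 0.96 (95% interval -0.07 to 3.91, adjusted p = 0.252), 3.14 within slide 2 and -1.24 within slide 3. It was called only without GATA1+LSK replicate 2 (3.08, adjusted p = 0.0273) or without slide 3 (4.41, adjusted p = 0.0316), and turned to -0.98 without replicates 1 and 4. Within LT-HSC the 2 arrays of slide 2 read 4.75 and 5.23 and the 4 of slide 3 read 6.81 to 8.39.

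The beta globin genes Hbb-bt and Hbb-bs were detected on all 22 arrays and did not follow Hba-a1 in every population. Hbb-bt read 13.93, 9.48, 11.62 and 13.54 on the GATA1+LSK arrays, so that replicates 1 and 4 were again the highest, against 7.94, 8.23, 9.75 and 9.25 in CMP. In LT-HSC it read 11.49 and 11.36 on slide 2 and 13.03 to 13.72 on slide 3, and in GATA1-LSK 11.50, 11.74 and 11.09 on slide 1 and 12.91 on slide 3, where Hba-a1 was undetected at 4.71. Both genes were higher in GATA1+LSK than in CMP, Hbb-bt by 3.35 ± 0.76 (adjusted p = 0.00692) and Hbb-bs by 3.48 ± 0.75 (adjusted p = 0.00434), and neither passed in the other 3 comparisons of GATA1+LSK. Without GATA1+LSK replicates 1 and 4 both calls were lost. They were also lost on the dimmest detected probe and with only the compared populations fitted. Of the 12 markers fixed for mature red cell precursors, 4 could be tested (Hbb-bt, Hbb-bs, Rhag and Hemgn). The log2 of their summed linear signals ran from 10.71 to 14.92 in GATA1+LSK, 9.39 to 10.60 in CMP and 12.35 to 14.49 in LT-HSC. In GATA1-LSK it ran from 12.01 to 13.80 and in LMPP from 11.12 to 12.78. Such a sum follows its brightest genes, here Hbb-bt and Hbb-bs, while Rhag averaged between 4.49 and 4.96 in the 5 populations. Slc4a1, Alas2 and Epb42, which define late erythroid cells, were under the detection filter. The part of such cells or their free RNA in the Hba-a1 values was not tested.

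**Figure D3:**
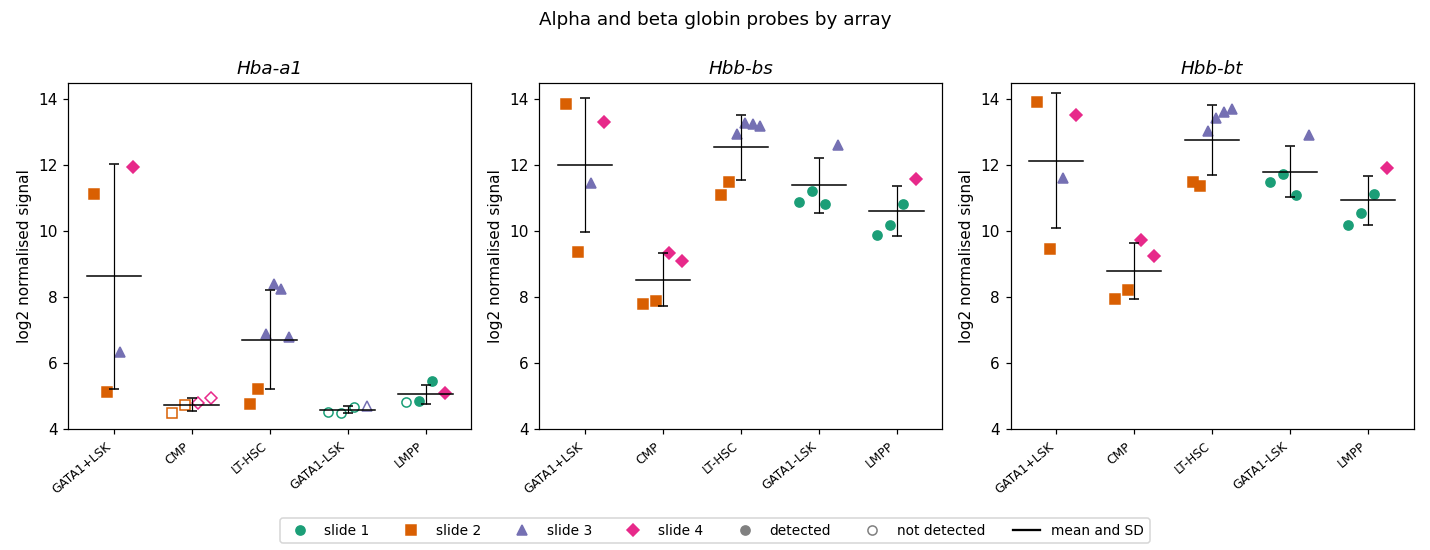
Log2 normalised signal (y axis) of the Hba-a1, Hbb-bs and Hbb-bt probes on each array, by population (x axis), with slide, detection, mean and SD marked as in the legend. GATA1+LSK replicates 1 and 4 are high for all 3 genes, and the beta globin probes are also high on the slide 3 arrays of LT-HSC and GATA1-LSK.

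Car1, an erythroid carbonic anhydrase, was strongly on in GATA1+LSK, CMP and LT-HSC and undetected in GATA1-LSK and LMPP. It read 7.82, 7.52, 9.13 and 7.91 in GATA1+LSK, against 8.56, 8.93, 8.29 and 8.98 in CMP, a lowest of 7.45, a median of 8.88 and a highest of 9.64 in LT-HSC, 4.41 to 4.59 in GATA1-LSK and 4.38 to 4.71 in LMPP. The arrays of the first 3 populations overlapped one another and none came near the other 8 arrays. In GATA1+LSK it was at least 8.68-fold higher than in GATA1-LSK (means 8.10 and 4.54, adjusted p = 6.39e-06) and at least 9.07-fold higher than in LMPP (means 8.10 and 4.52, adjusted p = 8.93e-07). The corresponding bounds were 13.1-fold and 13.7-fold in CMP and 13.5-fold and 14.1-fold in LT-HSC. GATA1+LSK differed by -0.59 ± 0.38 from CMP (95% interval -1.39 to 0.20, adjusted p = 0.496) and by -0.64 ± 0.35 from LT-HSC (95% interval -1.36 to 0.09, adjusted p = 0.318). Without slide 3 the first of these became -0.94 (adjusted p = 0.0159), and with array weights both passed (-1.17 and -1.30).

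Car2, the widely expressed high-activity carbonic anhydrase, had another profile, high in GATA1+LSK and LT-HSC and lowest in CMP. It read 7.22, 6.65, 7.73 and 7.38 in GATA1+LSK, against 5.32, 4.95, 4.57 and 5.80 in CMP, a lowest of 5.99, a median of 7.23 and a highest of 7.95 in LT-HSC, 5.64, 6.11, 6.38 and 7.07 in GATA1-LSK, and 5.58, 5.76, 5.33 and 6.44 in LMPP. Every GATA1+LSK array lay above every CMP array, and 1 CMP array was undetected. Car2 was higher in GATA1+LSK than in CMP by 2.08 ± 0.38 (adjusted p = 0.000938, and 0.0549 with median scaling) and lower in CMP than in LT-HSC by a difference of -1.97 ± 0.35 (adjusted p = 0.000219). Against LMPP it was higher by 1.46 ± 0.38 (adjusted p = 0.0154), with 0.94 within slide 4. That call was lost in 9 of 27 settings, among them with slide as a fixed block (0.87, adjusted p = 0.311), without LMPP replicate 3 (1.31, adjusted p = 0.0628) and without GATA1+LSK replicate 3 (1.30, adjusted p = 0.0623).

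The Car2 differences of 0.95 ± 0.38 from GATA1-LSK (95% interval 0.16 to 1.73, adjusted p = 0.226) and 0.12 ± 0.35 from LT-HSC (-0.60 to 0.84, adjusted p = 0.915) did not pass. CMP minus GATA1-LSK was -1.14 ± 0.38 (adjusted p = 0.0729), and it passed without GATA1-LSK replicate 1 (-1.36, adjusted p = 0.0482). It also passed with cyclic loess (-1.09, adjusted p = 0.0392) and with the mean of all detected probes (-0.97, adjusted p = 0.0216). The same held with the replicate number as a block (adjusted p = 0.00665) and with array weights (-1.10, adjusted p = 0.00341), but in no other setting. A dimmer Car2 probe averaged 4.87 in GATA1+LSK, 4.50 in CMP, 4.98 in LT-HSC, 5.30 in GATA1-LSK and 4.92 in LMPP, so it stood near background and did not show the rise of the bright one. Across arrays after subtracting each population's mean, Car1 and Car2 had the highest correlation of any pair of the 10 genes (r = 0.64, n = 22 arrays).

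Aqp1, the water channel of the red cell membrane, spanned the widest range of population means of the 10 genes. Its signal was 11.41, 11.25, 11.93 and 11.88 in GATA1+LSK, against 10.36, 9.69, 10.49 and 9.78 in CMP, a lowest of 9.26, a median of 9.92 and a highest of 10.37 in LT-HSC, 8.90, 8.84, 8.41 and 8.68 in GATA1-LSK, and 5.49, 5.31, 5.0 and 6.02 in LMPP. No GATA1+LSK array overlapped an array of another population. The gene was higher in GATA1+LSK by 6.16 ± 0.28 than in LMPP (adjusted p = 1.99e-12), by 2.91 ± 0.28 than in GATA1-LSK (adjusted p = 3.09e-06), by 1.77 ± 0.26 than in LT-HSC (adjusted p = 5.42e-05) and by 1.54 ± 0.28 than in CMP (adjusted p = 0.00111). CMP and LT-HSC were neighbours (0.23 ± 0.26, 95% interval -0.31 to 0.77, adjusted p = 0.589), LT-HSC stood above GATA1-LSK by 1.14 ± 0.26 (adjusted p = 0.0111), and GATA1-LSK stood above LMPP by 3.25 ± 0.28 (adjusted p = 9.05e-08).

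The other 2 Aqp1 probes kept GATA1+LSK at the top and LMPP at the bottom. One averaged 8.94 in GATA1+LSK, 7.59 in CMP, 6.86 in LT-HSC, 6.74 in GATA1-LSK and 4.58 in LMPP, and the other 7.50, 6.20, 5.96, 5.63 and 4.48 in the same order of populations. The call over LT-HSC was kept in all 29 alternative settings, and those over GATA1-LSK and LMPP in all 27 each. The call over CMP was lost with median scaling alone (1.23, adjusted p = 0.0541). LT-HSC against GATA1-LSK was lost in 6 of 29 settings, among them with slide as a fixed block (1.02, adjusted p = 0.138) and without slide 3 (0.75, adjusted p = 0.155).

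Icam4, an adhesion molecule of red cells that carries the Landsteiner-Wiener blood group in humans, was bright in every population. It read 11.02, 10.94, 11.61 and 11.35 in GATA1+LSK, against 9.83, 10.29, 10.95 and 10.62 in CMP, a lowest of 8.50, a median of 9.72 and a highest of 10.74 in LT-HSC, 10.41, 9.71, 10.10 and 10.34 in GATA1-LSK, and 7.60, 7.75, 8.37 and 8.71 in LMPP. The GATA1+LSK arrays lay above all others except 1 CMP array that reached between them. It was higher in GATA1+LSK by 3.12 ± 0.40 than in LMPP (adjusted p = 8.48e-06) and by 1.61 ± 0.36 than in LT-HSC (adjusted p = 0.00435). The differences of 1.09 ± 0.40 from GATA1-LSK (95% interval 0.26 to 1.91, adjusted p = 0.170) and 0.81 ± 0.40 from CMP (-0.02 to 1.63, adjusted p = 0.302) did not pass. The first passed without slide 2 (1.34, adjusted p = 0.0181), with array weights (0.93, adjusted p = 0.0303) and with the replicate number as a block (1.09, adjusted p = 0.0328), and the second with array weights (0.70, adjusted p = 0.0386).

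Within LT-HSC, Icam4 was split by slide, with 8.64 and 8.50 on slide 2 and 9.66 to 10.74 on slide 3. GATA1+LSK exceeded LT-HSC by 2.40 within slide 2 and by 1.47 within slide 3. CMP minus LT-HSC was 0.81 ± 0.36 (adjusted p = 0.124), 1.49 within slide 2, and passed without LT-HSC replicate 4 (1.03, adjusted p = 0.0356) or slide 3 (1.85, adjusted p = 0.000752), with slide as a fixed block (1.15, adjusted p = 0.00972) and with the replicate number as a block (1.03, adjusted p = 0.0126). LMPP was exceeded by CMP by 2.31 ± 0.40 (adjusted p = 0.000607), by LT-HSC by 1.51 ± 0.36 (adjusted p = 0.00559) and by GATA1-LSK by 2.03 ± 0.40 (adjusted p = 0.00259). Without slide 3 the LT-HSC to LMPP difference was 0.47 (adjusted p = 0.353).

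Sptb, which encodes the beta spectrin of the red cell skeleton, was raised in GATA1+LSK and near background in most other arrays. It read 5.92, 5.92, 6.86 and 8.56 in GATA1+LSK, against 4.79, 5.12, 6.23 and 4.60 in CMP, a lowest of 4.36, a median of 4.64 and a highest of 5.20 in LT-HSC, 4.47 to 4.85 in GATA1-LSK and 4.38 to 4.69 in LMPP. It was detected on every GATA1+LSK array, on 3 of 4 CMP and 1 of 6 LT-HSC arrays and on none of GATA1-LSK or LMPP. In GATA1+LSK it was at least 3.57-fold higher than in GATA1-LSK (means 6.81 and 4.71, adjusted p = 0.00611), at least 3.73-fold higher than in LMPP (means 6.81 and 4.57, adjusted p = 0.000843), and higher than in LT-HSC by 2.09 ± 0.38 (adjusted p = 0.000644). The difference from CMP was 1.63 ± 0.42 (adjusted p = 0.0190), 0.96 within slide 2 and 3.14 within slide 4, with overlapping arrays.

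The Sptb call over CMP was lost without GATA1+LSK replicate 4 (1.05, adjusted p = 0.0545) and without CMP replicate 1, 2 or 4 (1.496, 1.61 and 1.43, adjusted p = 0.0659, 0.0516 and 0.0729). Of the 5 Sptb probes 2 passed the filter. The second one averaged 5.50 in GATA1+LSK, 4.72 in CMP, 5.25 in LT-HSC, 4.35 in GATA1-LSK and 4.50 in LMPP. It thus gave LT-HSC a signal that the first probe did not, and on it GATA1+LSK exceeded LT-HSC by 0.25 (adjusted p = 0.752). The other 3 calls were lost on it as well. GATA1+LSK exceeded GATA1-LSK by 1.15 (adjusted p = 0.0622), LMPP by 0.9991 (adjusted p = 0.0607) and CMP by 0.78 (adjusted p = 0.208). The second probe was detected on 2 of 4 GATA1+LSK arrays. The other 3 probes averaged between 4.27 and 4.57 in all populations.

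Ank1, the ankyrin that anchors spectrin to the red cell membrane, stood near background in all 5 populations. It averaged 4.73 ± 0.30 in GATA1+LSK (SD, detected on 1 of 4 arrays), 4.75 ± 0.23 in CMP (1 of 4), 5.27 ± 0.48 in LT-HSC (4 of 6), 4.99 ± 0.43 in GATA1-LSK (2 of 4) and 4.56 ± 0.17 in LMPP (0 of 4). It was the 1 gene of the 10 that did not vary across populations in the test (adjusted p = 0.149). GATA1+LSK minus LT-HSC was -0.54 ± 0.24 (95% interval -1.03 to -0.05, adjusted p = 0.180) and CMP minus LT-HSC -0.52 ± 0.24 (adjusted p = 0.128). Both passed with the replicate number as a block (-0.63, adjusted p = 0.0380, and -0.62, adjusted p = 0.0268) and without LT-HSC replicate 6 (-0.71, adjusted p = 0.0303, and -0.69, adjusted p = 0.0198). LT-HSC exceeded LMPP by a bound of at least 1.27-fold (means 5.27 and 4.56, adjusted p = 0.0449), which 9 of 29 settings kept. That call was lost without any 1 of the LMPP arrays or of LT-HSC replicates 1 to 5 (adjusted p from 0.0592 to 0.114).

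Samd14, a sterile alpha motif protein known in mice to strengthen Kit signalling in erythroid progenitors, followed nearly the same order as Aqp1. It read 10.41, 10.51, 10.67 and 11.34 in GATA1+LSK, against 9.45, 9.51, 9.75 and 9.76 in CMP, a lowest of 8.63, a median of 8.90 and a highest of 9.20 in LT-HSC, 9.34, 9.27, 8.87 and 8.35 in GATA1-LSK, and 7.29, 6.95, 7.64 and 7.21 in LMPP. The GATA1+LSK arrays did not overlap those of any other population, nor did the LMPP arrays. Samd14 was higher in GATA1+LSK by 3.46 ± 0.24 than in LMPP (adjusted p = 7.82e-10), by 1.83 ± 0.22 than in LT-HSC (adjusted p = 3.62e-06), by 1.78 ± 0.24 than in GATA1-LSK (adjusted p = 8.75e-05) and by 1.11 ± 0.24 than in CMP (adjusted p = 0.00383). Median scaling ended the calls over GATA1-LSK (1.88, adjusted p = 0.0678) and CMP (0.79, adjusted p = 0.563). The mean of all detected probes also ended the call over CMP (0.55, adjusted p = 0.120). LT-HSC and GATA1-LSK were neighbours with an adjusted p of 0.922.

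CMP exceeded LT-HSC in Samd14 by 0.72 ± 0.22 (adjusted p = 0.0192), with 0.48 within slide 2. That call was lost in 10 of 29 settings, among them without CMP replicate 3 or 4 (0.68 and 0.67, adjusted p = 0.0514 and 0.0562). It was also lost with slide as a fixed block (0.40, adjusted p = 0.196) and with the replicate number as a block (0.60, adjusted p = 0.0910). The mean of all detected probes ended it too (0.28, adjusted p = 0.293). CMP minus GATA1-LSK was 0.66 ± 0.24 (adjusted p = 0.0974). The second Samd14 probe stood near background, at 4.63 in GATA1+LSK, 4.65 in CMP, 4.81 in LT-HSC, 4.85 in GATA1-LSK and 4.53 in LMPP, and on it none of the Samd14 calls of the bright probe passed.

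Sphk1, which makes the lipid signal sphingosine 1-phosphate, was highest in LT-HSC. It read 8.02, 7.23, 6.54 and 6.75 in GATA1+LSK, against 6.19, 6.45, 6.59 and 6.09 in CMP, a lowest of 8.44, a median of 9.33 and a highest of 10.37 in LT-HSC, 6.05, 5.58, 5.45 and 4.53 in GATA1-LSK, and 4.29 to 4.61 in LMPP, where it was undetected. Every LT-HSC array lay above every array of the other populations. Sphk1 was lower in GATA1+LSK than in LT-HSC by a difference of -2.13 ± 0.34 (adjusted p = 0.000122), with -1.21 within slide 2 and -2.93 within slide 3. It was higher in GATA1+LSK than in GATA1-LSK by 1.74 ± 0.37 (adjusted p = 0.00992) and at least 4.66-fold higher than in LMPP (means 7.14 and 4.38, adjusted p = 1.52e-05).

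Sphk1 in GATA1+LSK minus CMP was 0.81 ± 0.37 (95% interval 0.04 to 1.57, adjusted p = 0.255), and passed without slide 3 (1.003, adjusted p = 0.0341). The call over GATA1-LSK was lost in 5 of 27 settings, among them without slide 2 (1.25, adjusted p = 0.0505), without GATA1+LSK replicates 1 and 4 together (1.49, adjusted p = 0.117) and with median scaling (1.60, adjusted p = 0.299). CMP minus LT-HSC was -2.93 ± 0.34 (adjusted p = 9.98e-07), CMP was at least 2.67-fold above LMPP (means 6.33 and 4.38, adjusted p = 0.00145), and CMP minus GATA1-LSK was 0.93 ± 0.37 (adjusted p = 0.147). LT-HSC exceeded GATA1-LSK by 3.86 ± 0.34 (adjusted p = 1.66e-07) and LMPP by at least 20.3-fold (means 9.26 and 4.38, adjusted p = 8.21e-10). The other 2 Sphk1 probes were under the detection filter, with population means of 4.32 to 4.96.

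CMP was set against the same populations. Against GATA1-LSK, 3 of the 10 were higher in CMP (Klf1, Car1 and Aqp1), against 2.45% of all genes, and no slide held both populations. Aqp1 exceeded GATA1-LSK by 1.37 ± 0.28 there (adjusted p = 0.00284). Against LMPP, 6 were higher in CMP (Klf1, Car1, Aqp1, Icam4, Samd14 and Sphk1), against 2.27%, with Aqp1 at 4.62 ± 0.28 (adjusted p = 4.40e-10) and Samd14 at 2.34 ± 0.24 (adjusted p = 5.01e-07). Against LT-HSC, 2 were higher (Klf1 and Samd14) and 2 lower (Car2 and Sphk1), against 10.1% and 11.4% of all genes, and so few genes near that background say nothing about the set. LT-HSC in turn had 3 genes above GATA1-LSK (Car1, Aqp1 and Sphk1), against 2.74%, and 8 above LMPP, all but Hba-a1 and Sptb, against 7.90%. GATA1-LSK had 3 above LMPP (Aqp1, Icam4 and Samd14), against 2.15%. No slide held both LT-HSC and LMPP, and with slide as a fixed block 3 of these 8 calls were lost, Klf1 (0.94, adjusted p = 0.0646), Car2 (0.62, adjusted p = 0.470) and Ank1 (0.57, adjusted p = 0.369). The Car2 difference was 1.35 ± 0.35 without a block (adjusted p = 0.00921) and 0.96 with slide as a random block (adjusted p = 0.130).

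Markers of other lineages also differed between the populations. For the 7 measured megakaryocyte markers of 8, the log2 of the summed linear signals ran from 13.59 to 14.60 in GATA1+LSK. It ran from 11.88 to 12.74 in CMP, 12.51 to 12.86 in LT-HSC, 12.08 to 12.27 in GATA1-LSK and 8.75 to 9.37 in LMPP. The sums that follow were formed in the same way, so a bright marker can set them. The 4 measured mast cell and basophil markers of 6 summed to 11.08 to 11.94 in GATA1+LSK, 10.21 to 10.63 in CMP, 6.87 to 9.28 in LT-HSC, 8.59 to 9.54 in GATA1-LSK and 5.54 to 6.08 in LMPP. The 4 eosinophil markers summed to 13.22 to 14.84 in GATA1+LSK, 5.78 to 10.46 in CMP, 11.68 to 14.21 in LT-HSC, 8.24 to 9.57 in GATA1-LSK and 6.14 to 7.22 in LMPP. Prg2 was the brightest eosinophil marker, at 13.94 in GATA1+LSK and 12.98 in LT-HSC. Prg3, Epx and Ear6 were each detected on at least 3 GATA1+LSK arrays, on 2 of 6 LT-HSC arrays and on no CMP or GATA1-LSK array. Gp1bb, a subunit gene of the platelet glycoprotein Ib receptor, was undetected in LMPP. The basophil protease gene Prss34 averaged 10.9 in GATA1+LSK and 5.66 in CMP and was undetected in LT-HSC, GATA1-LSK and LMPP. The mast cell and basophil markers did not move together. Fcer1a averaged 8.73 in GATA1+LSK and 7.57 in CMP, and Mcpt8 averaged 6.67 and 6.68. Cpa3 was highest in CMP (10.07), with 8.92 in GATA1-LSK and 8.85 in GATA1+LSK. The 6 measured neutrophil markers of 8 summed to 10.54 to 13.29 in GATA1+LSK, 13.93 to 14.17 in CMP, 8.11 to 14.16 in LT-HSC, 13.19 to 13.87 in GATA1-LSK and 13.18 to 13.35 in LMPP. By mean level Mpo was the brightest of the neutrophil markers in each population, at 13.89 in CMP, and Elane was also highest in CMP (10.8). S100a8 and S100a9 were undetected on every CMP array, and Camp (4.93) and Ltf (4.60) had their lowest means there. The LT-HSC neutrophil sums were split by slide, with 8.16 and 8.11 on slide 2 and 11.01 to 14.16 on slide 3. Hba-a1 and Icam4 were also higher on these slide 3 arrays. In a sorted population, more cells of a type and more RNA per cell cannot be told apart, and the part of such cells in the levels of the 10 genes was not tested.

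Other genes of the same pathways were read from lists. Of all genes, the shares called higher in GATA1+LSK were the 1.08%, 3.71%, 3.49% and 4.16% given above, and the shares called lower were 1.66% against GATA1-LSK, 4.86% against LMPP, 3.01% against CMP and 6.34% against LT-HSC. With lists this short, counts of 1 or 2 genes are not read as a result about a list. Of the 11 tested genes of the red cell membrane and skeleton, 2 were higher in GATA1+LSK than in GATA1-LSK (Kel and Tmod1), 3 than in LMPP (Kel, Tspan33 and Tmod1), and 1 each than in CMP and LT-HSC (Tmod1); Cd47 was lower than in LMPP. The medians of this list were 0.08, 0.04, 0.28 and 0.13 in these 4 comparisons. Tmod1, which caps the actin filaments of the skeleton, was higher by 1.67 ± 0.33 than in GATA1-LSK (adjusted p = 0.00611), by 1.62 ± 0.33 than in CMP (adjusted p = 0.00302) and by 1.34 ± 0.30 than in LT-HSC (adjusted p = 0.00453), and at least 2.38-fold higher than in LMPP (means 6.17 and 4.34, adjusted p = 0.000632). Kel, the Kell blood group protease, was higher by 2.47 ± 0.54 than in GATA1-LSK (adjusted p = 0.0135), which did not pass with GATA1+LSK replicate 4 left out, and Cd47 against LMPP was lost without GATA1+LSK replicate 3 or 4 or LMPP replicate 1, 2 or 4.

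Of 13 erythroid transcription factor and receptor genes tested, 1 was higher in GATA1+LSK than in GATA1-LSK (Epor), 4 than in LMPP (Sox6, Gfi1b, Epor and Tal1), 2 than in CMP (Bcl11a and Tal1), 2 than in LT-HSC (E2f2 and Epor), and Klf3 was lower than in CMP. Epor, the erythropoietin receptor, was higher by 1.02 ± 0.24 than in GATA1-LSK (adjusted p = 0.0212), 1.53 ± 0.24 than in LMPP (adjusted p = 0.000116) and 0.74 ± 0.22 than in LT-HSC (adjusted p = 0.0312). The first of these was lost in 11 of 27 settings, among them without GATA1-LSK replicate 3 and without replicate 2 or 3 of GATA1+LSK, and the last in 13 of 29, among them with the replicate number as a block and without GATA1+LSK replicates 1, 2 or 3 or LT-HSC replicates 1, 2 or 6. Klf3 was lost in 14 of 27. Tal1 over CMP was lost in 7 of 27, among them without CMP replicate 1 or 4 or GATA1+LSK replicate 2. Of the 4 tested heme synthesis genes, only Urod passed, against LMPP (0.77 ± 0.17, adjusted p = 0.00366). In the list medians, erythroid factors stood at 0.18 against GATA1-LSK, 0.49 against LMPP, 0.28 against CMP and -0.11 against LT-HSC. Heme synthesis stood at 0.32, 0.29, 0.26 and 0.23 in the same order.

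Of 22 tested relatives of the 10 genes by gene family, none was higher in GATA1+LSK than in GATA1-LSK and 1 was lower (Samd10). Against LMPP, 2 were higher (Car13 and Aqp9) and 2 lower (Car12 and Samd10). Against CMP, 5 were higher (Klf2, Klf6, Aqp9, Samd9l and Car11) and 1 lower (Car12), and against LT-HSC, 1 was higher (Car13) and 3 lower (Icam1, Car11 and Samd10). The medians of this list were -0.07, 0.08, 0.12 and -0.04. Among carbonic anhydrases, Car13 was higher than in LMPP (1.91 ± 0.33, adjusted p = 0.000337) and LT-HSC (1.38 ± 0.30, adjusted p = 0.00332), while Car12 was lower than in CMP (-2.31 ± 0.44, adjusted p = 0.00146) and LMPP (-1.77 ± 0.44, adjusted p = 0.0112). Icam1, the leukocyte adhesion ligand, was lower than in LT-HSC (-1.48 ± 0.39, adjusted p = 0.0146), where Icam4 was higher. Klf2 and Klf6 were higher than in CMP, by 2.90 ± 0.72 (adjusted p = 0.0148) and 2.05 ± 0.44 (adjusted p = 0.00475). Leaving out GATA1+LSK replicate 1 or 2 ended the Klf2 call, and replicate 3 or 4 the Icam1 call, while the Samd10 call against LT-HSC was lost in 24 of 29 settings. The Samd10 call against GATA1-LSK was lost in 7 of 27, among them with slide as a fixed or random block and without GATA1-LSK replicate 3 or GATA1+LSK replicate 4. Against LMPP, Aqp9 was lost in 12 of 27 settings, among them when any LMPP array or GATA1+LSK replicate 3 or 4 was left out, and Aqp9, Car12 and Samd10 were lost with slide as a fixed block. Car11 against CMP was lost in 11 of 27, among them without CMP replicate 1, 2 or 4 or GATA1+LSK replicate 3 or 4. Car12 was lost in 2 of 27 settings against CMP and in 5 of 27 against LMPP, among them the dimmest detected probe for both.

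Of the genes that handle sphingosine 1-phosphate, Mfsd2b, the exporter of this lipid from red cells and platelets, averaged 9.44 ± 0.11 in GATA1+LSK, 8.12 ± 0.39 in CMP, 6.22 ± 0.66 in LT-HSC, 6.54 ± 0.33 in GATA1-LSK and 4.52 ± 0.11 in LMPP (SD, n = 4, 4, 6, 4 and 4). It was higher in GATA1+LSK than in LT-HSC by 3.21 ± 0.27 (adjusted p = 3.54e-08), GATA1-LSK by 2.90 ± 0.29 (adjusted p = 3.52e-06) and CMP by 1.31 ± 0.29 (adjusted p = 0.00605), and at least 22.9-fold higher than in LMPP (means 9.44 and 4.52, adjusted p = 8.74e-11). Sgpl1, the lyase that destroys the lipid, was lower in GATA1+LSK in all 4 comparisons, by differences of -2.33 ± 0.22 from LMPP (adjusted p = 1.43e-07), -1.85 ± 0.22 from CMP (adjusted p = 6.18e-06), -1.40 ± 0.22 from GATA1-LSK (adjusted p = 0.000642) and -1.28 ± 0.20 from LT-HSC (adjusted p = 0.000118). Of the 6 tested genes of this list, S1pr2 was the 1 other gene that passed, against LMPP (0.90 ± 0.28, adjusted p = 0.0484), and that call was lost in 18 of 27 settings. A dimmer Sgpl1 probe ended 3 of its 4 calls. Unlike Sphk1, whose highest population was LT-HSC, Mfsd2b was highest in GATA1+LSK.

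The median correlation between the 10 genes was higher over all arrays than within populations, though single pairs such as Car1 with Car2 (0.33 and 0.64) went the other way. Over the 22 arrays the 45 pairs correlated with a median r of 0.46 (range -0.15 to 0.91, 3 pairs below 0), with Aqp1 and Samd14 the closest pair (r = 0.91) and Sptb and Ank1 the farthest (r = -0.15). After each population's mean was subtracted the median was 0.08 (range -0.48 to 0.64, 13 pairs below 0), and Aqp1 with Samd14 stood at 0.03. Klf1 and Sphk1 were the pair with the lowest value there (r = -0.48). The arrays share slides and normalisation, and these values are descriptions.

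**Figure D4:**
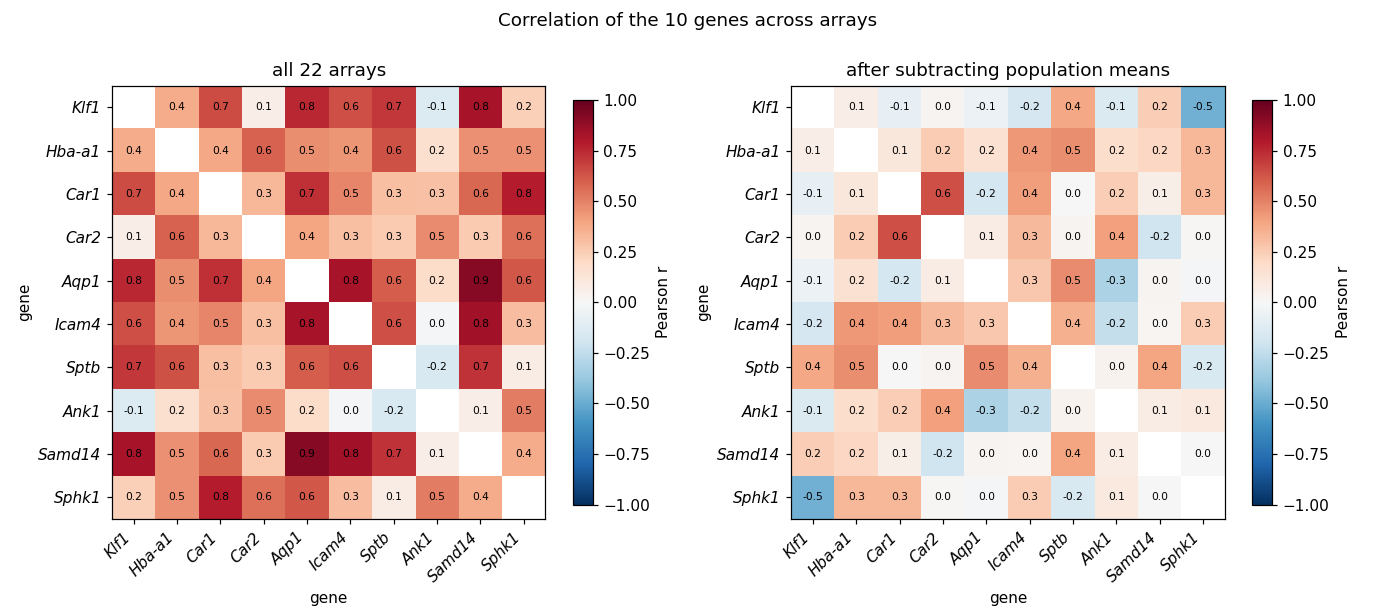
Pearson r between each pair of the 10 genes (both axes) over the 22 arrays, left, and after subtracting each population's mean, right; colour and numbers give r. The high values among Klf1, Aqp1, Icam4 and Samd14 on the left are not seen on the right, where Car1 with Car2 is highest.

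Of all 11118 genes, those whose levels followed Klf1 most closely over the 22 arrays were Zg16 (r = 0.86), Csrp3 (r = 0.85), Mfsd2b (r = 0.84), the basophil protease gene Mcpt8 (r = 0.83) and Ndufa1 (r = 0.82). Csrp3 averaged 10.91 in GATA1+LSK, 11.76 in CMP, 6.54 in LT-HSC, 6.78 in GATA1-LSK and 4.54 in LMPP. For the other members the closest gene was Treml1 for Samd14 (r = 0.95), Gp5 for Aqp1 (r = 0.94), Itga2b for Icam4 (r = 0.93), Cldn10 for Sphk1 (r = 0.90), Dpf3 for Sptb (r = 0.90), Slc38a5 for Car1 (r = 0.88), Fas for Car2 (r = 0.85), Prom2 for Ank1 (r = 0.81) and Pls1 for Hba-a1 (r = 0.78). Treml1, Gp5 and Itga2b are genes of platelets and megakaryocytes. By Spearman rank correlation the value was 0.53 for Dpf3, 0.57 for Prom2 and 0.64 for Pls1. It was 0.74 to 0.91 for the other closest genes of members other than Klf1. Pls1 stood near background, with population means of 4.51 to 4.95. The 22 arrays come from 5 populations and share slides, and these values are descriptions too.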

How the data were processed

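Total RNA of 22 sorted samples was amplified to biotin-labelled cRNA and hybridised to Illumina bead arrays, per the labels' protocols. The deposited non-normalised intensity of each probe is linear and can be below 0, and the deposited detection p-value sets it against the array's negative controls; BeadStudio is named without a version in the submitters' processing notes. The authors' deposited series matrix holds a linear intensity whose quantiles are the same on every array, from the values, and was used as an alternative.

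In R 4.3.3, neqc of limma 3.58.1 corrected the background with an offset of 16, quantile normalised and took log2. Of 45281 probes, 34885 name 1 gene, 18 several and 10378 none. Probes had to be detected (p under 0.05) on at least 4 arrays, as 19764 were, and the brightest stood for each of 11118 genes. A group-means model over all genes and all 22 arrays (lmFit, eBayes, 17 residual degrees of freedom) gave two-sided moderated tests, Benjamini-Hochberg adjusted over all genes per comparison (threshold 0.05), after a check on simulated data. Precision is limited by how many arrays each population has.

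The members and gene lists were chosen with earlier results of these data known, so counts over them are descriptions. Named genes are all members with every probe, up to 4 called genes of each list by size, and the 5 genes most correlated with Klf1 and the 1 most correlated with each other member, clones and predicted names left out; Samd9l and Car11 against CMP, beyond 4, were named to complete a count; the globins, marker genes and Gata1 are given as checks. Alternatives were the authors' values, median scaling, cyclic loess or no background correction, no detection filter or a stricter one (0.01), the mean of all probes, a fixed or (statmod 1.5.0) random slide block, a block by replicate number, a variance trend, array weights, a 2-fold minimum, only the compared populations, leaving out each array or slide, and differences within a slide. Leaving out the 2 GATA1+LSK arrays with raised Hba-a1 and using the dimmest detected probe were added after seeing the data. Same-numbered arrays correlated over 0.1 in every pair for GATA1+LSK with CMP (r = 0.19 to 0.58) and LT-HSC (0.24 to 0.64). The same held for CMP with LMPP (0.33 to 0.47) and LT-HSC (0.17 to 0.58), and LT-HSC with LMPP (0.11 to 0.48). The labels do not say that equal numbers share mice or sorts, and the main fit used no pairing. Of the 4 same-numbered pairs, 3 lay on 1 slide for GATA1+LSK with CMP and with LT-HSC. This was 1 for CMP with LMPP, 2 for CMP with LT-HSC and 0 for LT-HSC with LMPP. The part of slide in these correlations was not tested. They are correlations across genes, which are not independent replicates.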

Additional observations from a re-analysis of the deposited data

Results flagged for a closer look

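Of the 50 combinations of a gene and a population that were examined, 2 held an array far from the others of its population, where chance gives about 1 in 20. Car1 in GATA1-LSK replicate 4 was the lowest of 4 arrays at 4.41, where the nearest was 4.57. Sphk1 in LMPP replicate 2 was the highest of 4 at 4.61, where the nearest was 4.32. Both genes were undetected on every array of that population.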

How the results depend on the processing

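Of the 54 calls of the 10 genes over the 10 comparisons, 17 held in every setting tried and 37 were lost in at least 1. The causes were not tested, except that leaving out slide 1 leaves GATA1-LSK and LMPP 1 array each, assumed to vary like the others. Of the 7 genes called between GATA1+LSK and GATA1-LSK, median scaling called 3 (78 genes in all, against 305), leaving out slide 1 called 2 (10 in all) and fitting only the 2 populations called 4 (161 in all). Against LMPP, leaving out slide 1 called 5 of 9 (174 genes against 953). Against CMP, where the count was 5 (723 in all), median scaling and the dimmest probe called 2 (345 and 536), and leaving out slide 1, leaving out GATA1+LSK replicates 1 and 4, and fitting only both populations called 3 (482, 471 and 479). For CMP, array weights called 6 and leaving out slide 1 called 1, where 3 were called over GATA1-LSK (3039 and 97 genes against 853), leaving out slide 1 called 3 of 6 over LMPP (73 against 655), and a 2-fold minimum and the dimmest probe called 2 of 4 against LT-HSC (1544 and 1914 against 2390). Leaving out single arrays gave 6 to 7, 7 to 9, 3 to 5 and 6 to 7 for GATA1+LSK against GATA1-LSK, LMPP, CMP and LT-HSC, 3 to 4, 6 to 6 and 3 to 5 for CMP against GATA1-LSK, LMPP and LT-HSC, and 8 to 10 across populations. Of all 11118 genes, the same fits for GATA1+LSK called 175 to 363, 744 to 972, 520 to 717 and 930 to 1165. Those for CMP called 605 to 956, 449 to 681 and 1837 to 2426, and 2234 to 2691 were called across populations. The count of the 10 genes in GATA1+LSK against CMP was 3 without CMP replicate 1, 2 or 4 or GATA1+LSK replicate 4. On the dimmest detected probe these differences turned negative: Car2 in GATA1+LSK against GATA1-LSK (-0.43), LMPP (-0.052) and LT-HSC (-0.11), and Samd14 in GATA1+LSK against GATA1-LSK (-0.22), CMP (-0.020) and LT-HSC (-0.18) and in CMP against GATA1-LSK (-0.20) and LT-HSC (-0.16). In GATA1+LSK against CMP, Klf1 turned to -0.13 with median scaling and -0.25 with array weights. Against LT-HSC, Hba-a1 turned to -0.50 with array weights and -0.98 without replicates 1 and 4, and Car2 to -0.48 with array weights. Car2 there ranged from -0.11 (without LT-HSC replicate 6) to 0.32 over single arrays left out, with -0.04 without GATA1+LSK replicate 3. Aqp1 in CMP against LT-HSC turned to -0.041 with array weights. Median scaling moved the median of all genes to -0.22 in GATA1+LSK against CMP, where 106 genes were then higher and 239 lower, against 388 and 335 before. It gave 57 higher and 21 lower against GATA1-LSK, where 120 and 185 were called before, and for CMP 217 and 130, 160 and 142, and 968 and 561 against GATA1-LSK, LMPP and LT-HSC, where 272 and 581, 252 and 403, and 1128 and 1262 were called before. With the replicate number as a block, GATA1+LSK had 9 of the 10 genes over GATA1-LSK (572 in all) and 5 against CMP (1105 in all). Same-numbered arrays correlated at r = -0.17 to 0.28 in the first comparison and over 0.1 in every pair in the second. Over all genes, array weights called 1102, 2120, 2634 and 2872 for GATA1+LSK in the order of comparisons above, and 2303 and 4125 between CMP and LMPP or LT-HSC. Median scaling called 447 against LMPP and 497 against LT-HSC (1168 before), and 347, 302 and 1529 for CMP. Without slide 2, GATA1+LSK had 1705 against GATA1-LSK and 2191 against LMPP, without slide 4 it had 178 against GATA1-LSK and 470 against CMP, and CMP without slide 3 had 1370 against GATA1-LSK. Slide blocks gave 1429 (fixed) and 1295 (random) against CMP. Without GATA1+LSK replicates 1 and 4, 128 were called against GATA1-LSK and 644 against LT-HSC, where fitting both populations alone called 634. Across the 5 populations, 2546 became 1257, 5685 and 1290 with median scaling, array weights and without slide 1. Genes near background, as Ank1 and Sptb, are limited by their signal over it.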
